A study of Mus musculus with 47 samples.

Results

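The genes described here are 10 markers of adult neurogenesis, the production of new neurons in the grown brain. They are Mki67 and Top2a of dividing cells, Eomes and Neurod1 of intermediate progenitors, and Dcx, Sox11, Sox4, Igfbpl1, Draxin and Calb2 of immature neurons. Members were taken by matching the Ensembl mouse identifiers of the deposited count tables to these 10 symbols. All 10 were listed in both tables, which held 31751 genes for hippocampus and 33139 for brainstem. The gene set was named by function and no measured value entered its choice, but it was drawn up with earlier results of these data known.

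Expression was measured by RNA sequencing in hippocampus and brainstem of male C57BL/6 mice killed at 12 months of age. TG mice carried a transgene of human alpha-synuclein with the A30P mutation and came from a homozygous colony. The transgene was under the Thy1 promoter, which is active in neurons of the central nervous system. WT mice descended from the outcross of the same transgenic line and were bred as a parallel colony, so genotype and colony cannot be told apart. From 5 weeks of age each genotype received a standard diet (SD) or a high-fat diet (HFD), which gave the groups WT_SD, WT_HFD, TG_SD and TG_HFD. Each group had 6 libraries per region, except 5 in brainstem WT_SD, and each library was 1 sample of a mouse. The whole hippocampus and the medulla as brainstem were dissected, so each library mixes all cells of its region. In such tissue, fewer cells of a type and less RNA per cell cannot be told apart.

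In the adult dentate gyrus of the hippocampus, radial glia-like stem cells give rise to intermediate progenitors, which divide and become neuroblasts and then immature granule neurons. Mki67 encodes a nuclear protein found in cycling cells, and Top2a encodes the topoisomerase that untangles DNA before division. Eomes (Tbr2) and Neurod1 are transcription factors of intermediate progenitors, and Neurod1 is kept on in granule neurons of both hippocampus and cerebellum. Dcx encodes doublecortin, a microtubule-binding protein of migrating neuroblasts, and Sox11 and Sox4 encode transcription factors that switch on neuronal genes. Calb2 encodes calretinin, a calcium buffer of immature granule neurons that interneurons and mossy cells also make. Brainstem, here the medulla, served as reference tissue.

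Mki67 and Top2a are both transcribed in dividing cells, yet differed in how they compared between regions (see their values in the comparison of regions), and their promoters are shown for that reason. Of the 10 genes, 8 had a promoter entry from RefSeq (GRCm38.p6). The 250 bases before the annotated start are given 5′ to 3′ on the gene's strand, and capitals mark CCAAT or its reverse complement ATTGG, a motif frequent in promoters of cell division genes. Mki67 lies on the minus strand with this stretch at chr7:135716380-135716629, and Top2a on the minus strand at chr11:99024190-99024439.
Mki67: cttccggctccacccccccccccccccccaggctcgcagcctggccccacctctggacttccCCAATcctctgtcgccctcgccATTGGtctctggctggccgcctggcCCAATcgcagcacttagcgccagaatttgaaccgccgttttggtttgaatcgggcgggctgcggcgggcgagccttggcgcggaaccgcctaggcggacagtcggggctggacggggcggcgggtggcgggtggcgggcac
Top2a: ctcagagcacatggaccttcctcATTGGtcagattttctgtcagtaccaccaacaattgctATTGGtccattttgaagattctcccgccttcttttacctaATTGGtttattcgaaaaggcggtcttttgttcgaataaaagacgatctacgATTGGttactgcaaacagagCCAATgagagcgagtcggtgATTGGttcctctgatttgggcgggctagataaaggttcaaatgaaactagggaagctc

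The Mki67 stretch held CCAAT 3 times on either strand and the Top2a stretch 6 times. At least 1 match was present in 33.8% of the 32851 promoter entries over the same length, 2 or more in 10.1% and 5 or more in 0.213%. TTTGAA, a letter sequence of the cell cycle homology region, or its reverse complement TTCAAA, occurred 2 times in each gene. At least 1 match was present in 16.0% of entries and 2 or more in 1.81%. The related TTCGAA occurred 2 times in Top2a and 0 times in Mki67, against at least 1 match in 1.34% of entries and 2 or more in 0.0183%. Among the other members with an entry, CCAAT was found 4 times at Sox4, 2 times at Eomes, 1 time at Sox11 and at 1 of the 2 Dcx starts, and not at Neurod1 or Draxin. These are matches of letters and were not tested as binding sites. Whether the number of matches relates to the difference between regions was not tested.

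Hippocampal libraries held between 11945971 and 17328447 counted reads and brainstem libraries between 10020784 and 15078812. Regional labels held. All 8 hippocampal markers, among them Spink8 and Emx1, were higher in hippocampus, and all 5 medullary markers listed in both tables, among them Slc6a5 and Chat, were lower there.

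The depth behind the 10 genes differed widely. Calb2 had a mean of 442 reads per library in hippocampus, Neurod1 241, Sox4 172, Dcx 161 and Sox11 114. The other 5 were scarce, with 447 reads over all 24 hippocampal libraries for Mki67, 242 for Top2a, 148 for Draxin, 89 for Igfbpl1 and 32 for Eomes. A total of at least 50 reads over the libraries of a region was required for testing, which 9 of the 10 genes passed in hippocampus and all 10 in brainstem. Eomes, with 0 reads in 10 of 24 hippocampal libraries, did not pass there and was fitted only without this filter.

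Levels are given as CPM, counts scaled by library size after normalization over all 47 libraries, and divided by transcript length in kb where genes are compared. Calb2 had the highest level per length in hippocampus, at 22.1 ± 3.53 CPM per kb (SD, n = 24), followed by Neurod1 at 6.3 ± 0.497, Sox4 at 2.56 ± 0.175, Dcx at 1.26 ± 0.199 and Sox11 at 0.979 ± 0.144. Among these, only neighbours Dcx and Sox11 lay within about their spread of each other. Top2a (0.137 ± 0.057 CPM per kb), Mki67 (0.133 ± 0.0397), Igfbpl1 (0.0924 ± 0.0751) and Draxin (0.0851 ± 0.0483) followed and did not differ from their neighbours beyond the spread between libraries. Eomes was lowest, at 0.0264 ± 0.0386 CPM per kb, within the spread of Draxin. In brainstem Calb2 again led, at 85.9 ± 9.5 CPM per kb (SD, n = 23), ahead of Sox4 (1.37 ± 0.22), Neurod1 (1.25 ± 0.419) and Dcx (1.03 ± 0.142), which overlapped. There Mki67 was last, at 0.0494 ± 0.0215 CPM per kb.

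**Figure D1:**
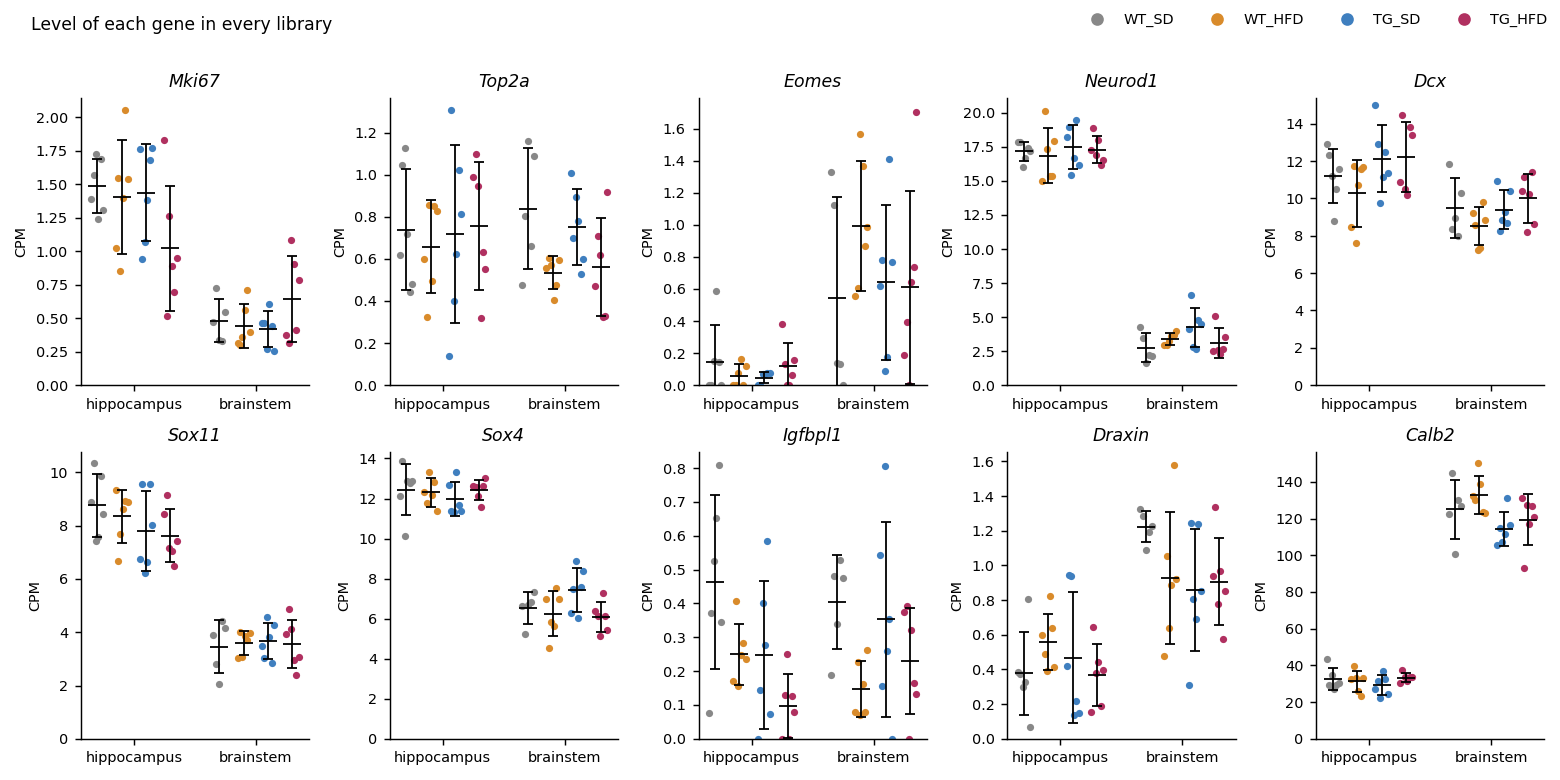
Level of each of the 10 genes in CPM (vertical axes, linear from 0) in every hippocampal and brainstem library, coloured by group, with black bars for the mean ± SD of a group. Hippocampal Neurod1 lay between 15 and 20.2 CPM in all 4 groups. No gene separated the groups in any of the 4 comparisons within a region. Neurod1, Sox11, Sox4 and Calb2 separated the regions in full. How many of all genes separated groups or regions was not counted, and 60.6% of 23003 tested genes were called between regions.

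The first question was whether genotype or diet changed these genes in hippocampus. None of the 9 tested members was called in any comparison of the 4 groups. A gene was called when its adjusted p in edgeR's quasi-likelihood test was at most 0.05 and its absolute log2 fold change at least 0.3. For TG_SD/WT_SD 0 of 9 members were called, where 0.112% of 20554 tested genes were, and 0 members had an unadjusted p of at most 0.05. For TG_HFD/WT_HFD 0 of 9 were called against a background of 0.122%, and 2 had such an unadjusted p. WT_HFD/WT_SD called 0 members (background 0.00487%) with 0 below the unadjusted limit, and TG_HFD/TG_SD called 0 (background 0.0146%) with 1 below it. The interaction of genotype and diet called 0 members and 0% of all genes, with 1 member below the unadjusted limit. Averaged over diets, TG/WT called 0 members (background 0.214%) with 3 below it. Averaged over genotypes, HFD/SD called 0 members and 0% of all genes with 0 below it. Over all 20554 genes, such an unadjusted p was seen for 1614 in TG_SD/WT_SD, 1834 in TG_HFD/WT_HFD, 1181 in WT_HFD/WT_SD and 1250 in TG_HFD/TG_SD. It was seen for 1058 genes in the interaction, 2235 in TG/WT and 1334 in HFD/SD. DESeq2 called 0 members in each of these comparisons as well. With so few genes called in all, a count of 0 among 9 says little about the set, and the values of each gene follow.

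Of the dividing cell genes, Mki67 was measured in hippocampus at 1.24 to 1.73 CPM in WT_SD (median 1.48), 0.854 to 2.05 in WT_HFD (median 1.47), 0.943 to 1.77 in TG_SD (median 1.53) and 0.516 to 1.83 in TG_HFD (median 0.917). The TG_HFD median was the lowest, but 1 of its libraries was above all of WT_SD and the groups overlapped. Its log2 fold change for TG_HFD/TG_SD was −0.52 (SE 0.254, 95% interval −1.02 to −0.02, unadjusted p = 0.0473, edgeR adjusted p = 0.814). For TG_HFD/WT_HFD it was −0.51 (SE 0.348, adjusted p = 0.714), and on SD the genotypes differed by −0.03 (SE 0.256). Top2a ranged from 0.441 to 1.13 CPM in WT_SD (median 0.668), 0.325 to 0.854 in WT_HFD (median 0.714), 0.141 to 1.31 in TG_SD (median 0.717) and 0.317 to 1.1 in TG_HFD (median 0.79). The groups overlapped throughout and the TG_HFD median was not the lowest, with a log2 fold change of 0.10 for TG_HFD/TG_SD (SE 0.363, 95% interval −0.62 to 0.81).

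Of the intermediate progenitor genes, Neurod1 was the steadiest. Its CPM lay between 16.1 and 17.9 in WT_SD (median 17.3), 15 and 20.2 in WT_HFD (median 16.4), 15.4 and 19.4 in TG_SD (median 17.4) and 16.2 and 18.9 in TG_HFD (median 17.1). All 4 group medians fell inside the range of every other group. The largest of its 4 log2 differences was 0.06 for TG_SD/WT_SD (SE 0.0697), and the 95% intervals of the 4 comparisons lay between −0.18 and 0.20. Differences of 0.3 or more in Neurod1 RNA of the whole tissue thus lay outside these intervals. Neurod1 is also kept on in granule neurons, so these values do not single out intermediate progenitors. Eomes had 13 reads over the 6 hippocampal WT_SD libraries, 9 of them in a single library, 5 in WT_HFD, 4 in TG_SD and 10 in TG_HFD. Fitted without the filter on low counts, its log2 difference for TG_SD/WT_SD was −1.57 (SE 0.94, edgeR adjusted p = 0.703) and for TG_HFD/WT_HFD −0.72 (SE 1.34), and 0 of the 7 comparisons called it.

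Dcx, the marker most often used for neuroblasts, had 8.82 to 12.9 CPM in WT_SD (median 11.4), 7.61 to 11.7 in WT_HFD (median 11.1), 9.77 to 15 in TG_SD (median 11.9) and 10.2 to 14.5 in TG_HFD (median 12.1). Both TG medians were above both WT medians, and the ranges overlapped. For TG_HFD/WT_HFD its log2 fold change was 0.27 (SE 0.123, 95% interval 0.03 to 0.51, unadjusted p = 0.0319, edgeR adjusted p = 0.493), and for TG_SD/WT_SD 0.16 (SE 0.0959, adjusted p = 0.731). Averaged over diets TG/WT gave 0.22 (SE 0.0856, unadjusted p = 0.0156, adjusted p = 0.304), below the fold limit. Leaving out WT_SD replicate 6, the lowest of its group, brought that average to 0.10. The model's surrogate variables, estimated hidden sources of variation, were estimated anew in that fit. Over all genes, 44 were called in this comparison with every library and 14 without this one. How much of the shift came from the Dcx value of this library was not tested.

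Sox4 was as steady as Neurod1, at 10.1 to 13.9 CPM in WT_SD (median 12.8), 11.4 to 13.4 in WT_HFD (median 12.3), 11.3 to 13.3 in TG_SD (median 11.5) and 11.6 to 13 in TG_HFD (median 12.6). Its 95% intervals for the 4 comparisons of groups lay between −0.21 and 0.22. Sox11 had 7.43 to 10.4 CPM in WT_SD (median 8.68), 6.67 to 9.33 in WT_HFD (median 8.76), 6.23 to 9.58 in TG_SD (median 7.4) and 6.47 to 9.16 in TG_HFD (median 7.29). Here both TG medians were below both WT medians, the opposite order to Dcx, with a log2 fold change of −0.13 for TG/WT averaged over diets (SE 0.102, adjusted p = 0.727). Neither gene was called in any comparison.

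Igfbpl1, which encodes an insulin-like growth factor binding protein family member, had 1 to 11 reads per library in WT_SD, 2 to 5 in WT_HFD, 0 to 8 in TG_SD and 0 to 4 in TG_HFD. The sums over the 6 libraries were 39, 20, 21 and 9 reads in that order, with medians of 0.449, 0.242, 0.211 and 0.103 CPM. The lowest group sum was in TG_HFD and the highest in WT_SD, but single libraries of every group overlapped. For TG/WT averaged over diets the log2 fold change was −1.22 (SE 0.523, unadjusted p = 0.0247, edgeR adjusted p = 0.36), and for HFD/SD averaged over genotypes −0.91 (SE 0.466, adjusted p = 0.786). Counts this low gave wide intervals, from −3.13 to 0.27 for TG_HFD/WT_HFD.

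Draxin, an axon guidance protein gene, had group medians of 0.35 CPM in WT_SD, 0.544 in WT_HFD, 0.321 in TG_SD and 0.386 in TG_HFD, with libraries from 0.0688 to 0.943. Its interaction of genotype and diet was −1.36 on the log2 scale (SE 0.728, adjusted p = 0.963), and its 95% interval ran from −2.79 to 0.07.

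Calb2 had 27 to 43.5 CPM in WT_SD (median 29.9), 23.4 to 39.7 in WT_HFD (median 32.8), 22.2 to 37 in TG_SD (median 29.3) and 30.2 to 37.3 in TG_HFD (median 33.8). The TG_HFD libraries lay inside the range of WT_HFD, and the group means of 33.4 and 31.3 CPM were closer than their SDs of 2.46 and 5.78. In the model with surrogate variables, which are estimated hidden sources of variation, TG_HFD/WT_HFD was 0.32 (SE 0.113, 95% interval 0.09 to 0.54, unadjusted p = 0.00828, edgeR adjusted p = 0.329), and without surrogate variables 0.09. The interaction was 0.30 (SE 0.129, unadjusted p = 0.0252, adjusted p = 0.903). TG/WT averaged over diets was 0.16 (SE 0.0784, unadjusted p = 0.0423, adjusted p = 0.434) and turned to −0.03 without surrogate variables.

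**Figure D2:**
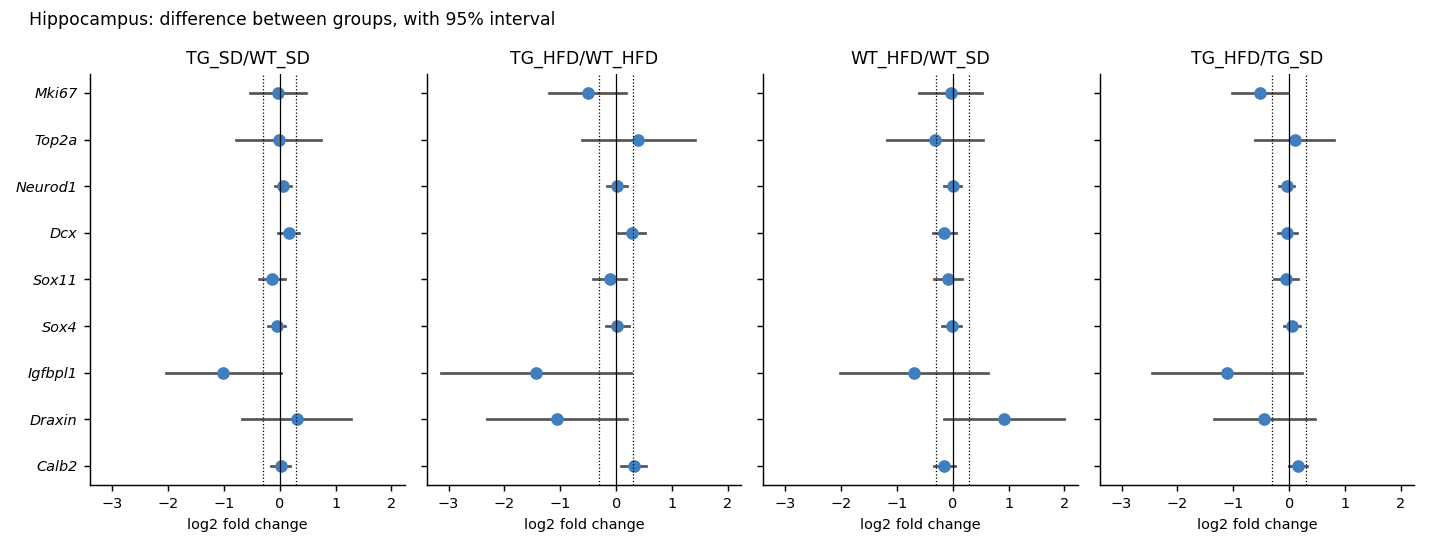
Log2 fold change (horizontal axes) of the 9 tested genes in hippocampus for the 4 comparisons of groups, with lines for the 95% interval and dotted lines at the fold limit of 0.3 in each direction. Neurod1 and Sox4 had intervals inside these limits in all 4 panels, whereas that of Igfbpl1 for TG_HFD/WT_HFD reached from −3.13 to 0.27.

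The wider set of genes around the 10 members was also without calls in hippocampus. With 2 surrogate variables 698 genes were called for hippocampal TG_HFD/WT_HFD, but the lists were counted only in the fit with 4. In that fit at most 0.214% of all 20554 genes were called there in any comparison, so 0 calls say little about this wider set. It comprised 34 cell cycle genes (29 tested), 14 neural stem cell genes (13 tested), 16 neuronal commitment genes (16 tested), 18 immature neuron structure genes (18 tested) and 10 mature dentate granule cell markers (10 tested), and 0 of them were called in any of the 7 comparisons, with lists overlapping in Prox1. For TG_HFD/WT_HFD 0 cell cycle genes, 5 neural stem cell genes, 1 commitment gene, 5 immature neuron structure genes and 1 mature granule cell marker had an unadjusted p of at most 0.05, beside 1834 of all 20554 genes. The medians of the log2 fold changes in that comparison were 0.10 for cell cycle genes, −0.04 for neural stem cell genes, −0.03 for commitment genes, 0.07 for immature neuron structure genes and −0.12 for mature granule cell markers, where the median over all genes was 0.01. The most abundant cell cycle gene was Pcna, the DNA clamp of replication and repair, at 34.2 to 43.2 CPM over all hippocampal libraries. Mature granule cell markers summed to 469 to 531 CPM in WT_SD (median 497), 470 to 564 in WT_HFD (median 490), 388 to 557 in TG_SD (median 484) and 436 to 497 in TG_HFD (median 459), and the groups overlapped.

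The next question was how hippocampus compared with brainstem. With all 47 libraries in 1 model, 7 of the 10 genes were called between regions, where 60.6% of 23003 tested genes were. The paper describes RNA of both regions as taken from the animals of each group, so libraries of the regions may share mice. The labels do not say whether same-numbered libraries of both regions came from 1 mouse. The model treated all libraries as independent, so its p-values take no account of shared mice. A share of 7 in 10 is near that background and says nothing particular about the set, but the directions and sizes differed between its genes. Higher in hippocampus were 4 members, Mki67, Neurod1, Sox11 and Sox4 (background 27.7%), and lower were 3, Eomes, Draxin and Calb2 (background 32.9%).

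Neurod1 had the largest excess in hippocampus. Its libraries there held 15 to 20.2 CPM (median 17.2) and those of brainstem 1.64 to 6.62 (median 3.27), without overlap. The log2 fold change, hippocampus over brainstem, was 2.37 (SE 0.0762, edgeR adjusted p = 1.92e-33). Sox11 had 6.23 to 10.4 CPM against 2.04 to 4.87, a log2 difference of 1.19 (SE 0.076, adjusted p = 3.02e-20). Sox4 had 10.1 to 13.9 CPM against 4.52 to 8.86, a log2 difference of 0.90 (SE 0.0497, adjusted p = 4.93e-23). For both genes every hippocampal library was above every brainstem library. How many of all genes separated the regions in this way was not counted.

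Mki67 had 0.516 to 2.05 CPM in hippocampus (median 1.39) and 0.256 to 1.08 in brainstem (median 0.442). The ranges overlapped, with hippocampal libraries of WT_HFD, TG_SD and TG_HFD below the highest brainstem library, and the log2 fold change was 1.41 (SE 0.147, adjusted p = 1.73e-12). Top2a did not share this difference, at 0.141 to 1.31 CPM (median 0.676) against 0.322 to 1.16 (median 0.603) and a log2 fold change of 0.11 (SE 0.167, 95% interval −0.22 to 0.44, adjusted p = 0.557). The interval of Mki67, 1.12 to 1.70, did not meet that of Top2a. In the wider list, 5 of 34 cell cycle genes were higher in hippocampus (background 27.7%) and 11 lower (background 32.9%). Their median was −0.17 against −0.06 over all genes. Among them Cenpe, a kinesin of chromosome alignment, was higher by 1.73 (SE 0.143) and Mcm6, of the replicative helicase, by 1.38 (SE 0.0448), whereas Cdk1, the mitotic kinase, had −1.98 (SE 0.2).

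Dcx differed little between the regions. It had 7.61 to 15 CPM in hippocampus (median 11.5) and 7.26 to 11.9 in brainstem (median 8.93), with overlap, and a log2 difference of 0.29 (SE 0.0596, edgeR adjusted p = 1.6e-05) that fell just short of the fold limit of 0.3. Igfbpl1 was near the floor in both, with 89 and 83 reads in all and a log2 difference of −0.18 (SE 0.298, adjusted p = 0.602).

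Calb2 was the most abundant member in each region and lower in hippocampus, at 22.2 to 43.5 CPM (median 31.8) against 93.2 to 150 in brainstem (median 123). The regions did not overlap, and the log2 fold change was −1.96 (SE 0.0534, adjusted p = 8.43e-37). Draxin had 0.0688 to 0.943 CPM against 0.311 to 1.58, a log2 difference of −1.13 (SE 0.187, adjusted p = 3.39e-07). Eomes had 0 to 0.588 CPM against 0 to 1.7, with 32 reads in hippocampus and 210 in brainstem and a log2 difference of −2.84 (SE 0.418, adjusted p = 2.69e-08).

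Taken by group, the region difference was called for 6 members in WT_SD (background 50.9%), 6 in WT_HFD (52.8%), 8 in TG_SD (52.7%) and 6 in TG_HFD (51.5%). Mki67 was higher in hippocampus by 1.62 in WT_SD, 1.67 in WT_HFD and 1.75 in TG_SD, and had 0.61 in TG_HFD (SE 0.282, edgeR adjusted p = 0.0595), where it was not called. In the test of the difference itself, TG_HFD/TG_SD of Mki67 differed between regions by −1.14 (SE 0.419, unadjusted p = 0.00871, adjusted p = 0.996), which did not pass. None of the 10 members passed that test in any of the 7 comparisons, where the background was 0.00435% for TG_SD/WT_SD, 0.00435% for TG_HFD/WT_HFD, 0.013% for TG/WT averaged over diets and 0% for the other 4. The brainstem values of Mki67 rest on 3 to 14 reads per library.

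**Figure D3:**
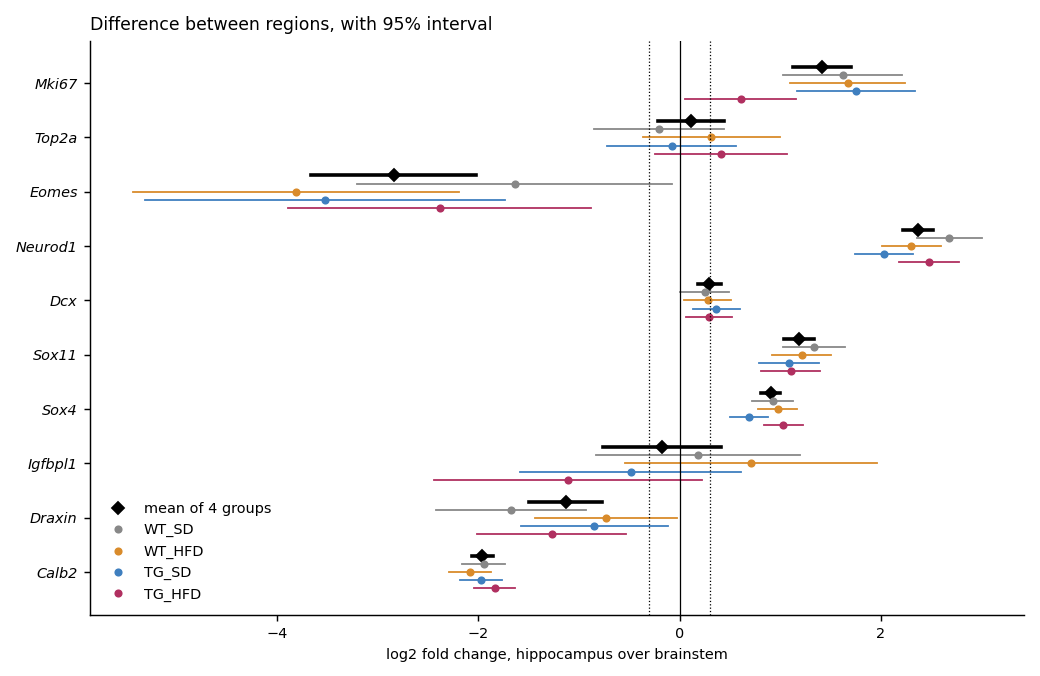
Log2 fold change of hippocampus over brainstem (horizontal axis) for each gene, with black diamonds for the mean of the 4 groups, coloured points for single groups, lines for 95% intervals and dotted lines at the fold limit of 0.3. Neurod1, at 2.37, and Eomes, at −2.84, lay at opposite ends, and Mki67 in TG_HFD, at 0.61, lay left of the other 3 groups.

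The gene lists around the members are given by their counts between regions. Of all 23003 tested genes, 27.7% were called higher in hippocampus and 32.9% lower. Counts near these shares say nothing particular about a list. All 10 mature granule cell markers were higher in hippocampus (median 2.08), led by Dsp at 5.89 (SE 0.111). Of 16 neuronal commitment genes, 10 were higher and 4 lower (median 1.39), with Neurod6 at 5.70 (SE 0.0534) and Neurod2 at 3.85 (SE 0.0672), transcription factors that mature forebrain neurons also keep on, and the neuropeptide gene Gal at −3.72 (SE 0.178). Of 18 immature neuron structure genes, 6 were higher and 8 lower (median −0.15), with Crmp1 at 1.91 (SE 0.032) and the surface protein gene Cd24a at −2.79 (SE 0.0663). Of 13 tested neural stem cell genes, 4 were higher and 4 lower. The astrocyte glutamate transporter gene Slc1a3 had 1.79 (SE 0.0456). The 7 markers of subventricular zone and olfactory neuroblasts, all also made by forebrain interneurons, were higher in hippocampus, and summed to 38.3 to 48.8 CPM there against 0.241 to 1.73 in brainstem. Of markers of other cells, 8 of 10 GABAergic interneuron genes were higher and 2 lower, 2 of 5 mossy cell genes higher and 3 lower, 3 of 9 oligodendrocyte precursor genes higher and 5 lower, and 4 of 6 microglia genes higher. Lower in hippocampus were 5 of 6 endothelial, 5 of 6 choroid plexus, 2 of 6 ependymal and 8 of 8 cerebellar genes.

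In brainstem, as in hippocampus, 0 of the members were called in any of the 7 comparisons of groups with edgeR or DESeq2. All 10 were tested, and the backgrounds were 0.0952% for TG_SD/WT_SD, 0.0286% for TG_HFD/WT_HFD, 0.00952% for WT_HFD/WT_SD, 0.00476% for TG_HFD/TG_SD, 0% for the interaction, 0.0619% for TG/WT and 0.00952% for HFD/SD. Of all 21015 genes, 1758 had an unadjusted p of at most 0.05 for TG_SD/WT_SD, 1041 for TG_HFD/WT_HFD and 1012 for WT_HFD/WT_SD. The counts were 1270 for TG_HFD/TG_SD, 951 for the interaction, 1702 for TG/WT and 1426 for HFD/SD. Among the members, such a p was seen for 1 in each of TG_SD/WT_SD, TG_HFD/WT_HFD, TG_HFD/TG_SD and the interaction, and for 0 in the other 3. These were Dcx for TG_HFD/WT_HFD, with a log2 difference of 0.26 (SE 0.126, adjusted p = 0.987), and Neurod1 in the other 3. In the lists around the members, Fabp7, a fatty acid binding protein gene of stem cells and astrocytes, was higher by 0.47 for TG_SD/WT_SD (adjusted p = 0.0195), and Cldn5, a tight junction gene of endothelium, by 0.39 (adjusted p = 0.0294), and no other listed gene was called.

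Neurod1 in brainstem had 4.27, 3.45, 1.64, 2.25 and 2.18 CPM in the 5 WT_SD libraries. The other groups had 2.94 to 3.96 in WT_HFD (median 3.45), 2.68 to 6.62 in TG_SD (median 4.32) and 2.26 to 5.1 in TG_HFD (median 2.59), and all overlapped. Its log2 fold change for TG_SD/WT_SD was 0.56 (SE 0.189, unadjusted p = 0.00576, edgeR adjusted p = 0.339), and the interaction was −0.72 (SE 0.292, unadjusted p = 0.0192, adjusted p = 1). Eomes had 1.33, 1.12, 0.136, 0.132 and 0 CPM in the WT_SD libraries, and 0.557 to 1.57 in WT_HFD, 0.0895 to 1.41 in TG_SD and 0 to 1.7 in TG_HFD. The medians of Eomes were 0.136 CPM in WT_SD, 0.929 in WT_HFD, 0.694 in TG_SD and 0.518 in TG_HFD. Its SDs within groups were 0.406 to 0.629 CPM, and the ranges of all 4 groups overlapped.

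These 2 genes varied together with a sum of cerebellar markers in brainstem. The summed CPM of 8 cerebellar markers, Gabra6, Cbln1, Cbln3, Fat2, Barhl1, Pcp2, Car8 and Slc1a6, ranged from 69.5 to 119 in WT_SD (median 77.1), 95.5 to 138 in WT_HFD (median 109), 74.9 to 205 in TG_SD (median 115) and 54.5 to 117 in TG_HFD (median 83). In hippocampus the sum was 11.2 to 20.2 CPM. Gabra6, the GABA-A receptor subunit of cerebellar granule neurons, ranged from 0.544 to 21.6 CPM over the brainstem libraries, and Pcp2, of Purkinje cells, from 0 to 1.4. None of the 8 markers was at 0 in all libraries of a brainstem group. Cbln1 was the most abundant of them in brainstem, with a mean of 48.1 CPM. Whether these reads came from cerebellum or from cells of the medulla was not tested.

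Over the 23 brainstem libraries, log2 CPM of Neurod1 followed the log2 of this sum with Pearson's r = 0.836 and Spearman's rho = 0.864, each with a permutation p of 1e-05, the smallest that 100000 permutations can give. Adjusted over the 19 relations computed, both were p = 0.00019 by permutation. For Eomes r was 0.753 (permutation p = 2e-05, adjusted 0.00019) and rho 0.803 (permutation p = 3e-05, adjusted 0.000285). Without the 2 libraries farthest from the median sum, r was 0.824 for Neurod1 and 0.821 for Eomes, and within groups, after subtracting group means, 0.825 and 0.77. The library with the highest sum, TG_SD replicate 2, also had the highest Neurod1, and without it the TG_SD/WT_SD difference of Neurod1 was 0.47 (adjusted p = 0.429). The 3 WT_SD libraries with 0.136 CPM of Eomes or less were the 3 with the lowest sums of that group. Whether cerebellar RNA contributed to the brainstem levels of Neurod1 and Eomes was not tested beyond these values.

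The other 8 genes had permutation p-values from 0.328 to 0.953 for r in brainstem, and Calb2 had r = 0.0127 and Dcx r = −0.0821. In hippocampus the 9 tested members were set against the summed mature granule cell markers. Sox11 had the highest r over all libraries, with r = 0.453 (permutation p = 0.0245, adjusted 0.155), rho = 0.477 (permutation p = 0.0195, adjusted 0.123), r = 0.544 without the 2 farthest libraries and 0.384 within groups. None of the hippocampal relations passed after adjustment over the 19, and Neurod1 had r = 0.361 (permutation p = 0.0828), which was 0.0447 without the 2 farthest libraries and 0.458 within groups.

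**Figure D4:**
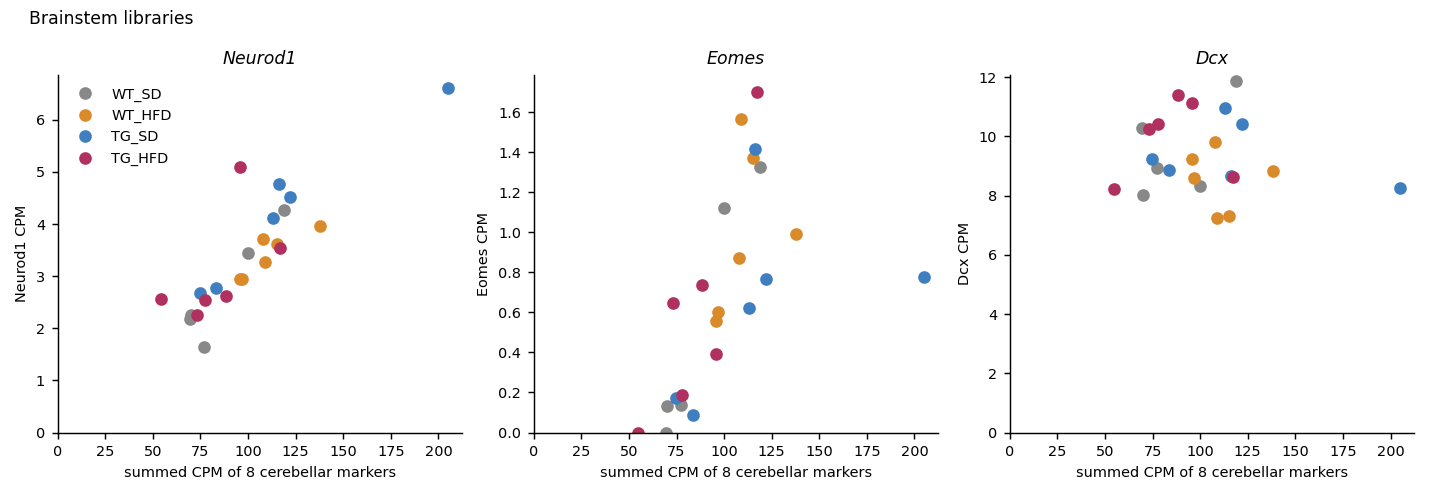
CPM of Neurod1, Eomes and Dcx (vertical axes) against the summed CPM of 8 cerebellar markers (horizontal axes) in the 23 brainstem libraries, coloured by group. Neurod1 (r = 0.836 on log2 values) and Eomes (r = 0.753) were higher in libraries with more marker reads, and Dcx (r = −0.0821) was not.

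Across the 24 hippocampal libraries, after subtracting group means, the 5 best covered members did not vary as a block. Correlations of their log2 CPM ran from −0.083 for Sox4 and Calb2 to 0.544 for Neurod1 and Calb2, with 0.344 for Neurod1 and Dcx and 0.197 for Dcx and Sox11. These are descriptions, since all points share the depth and composition of their libraries. Among 13271 genes the pattern most like that of Dcx was found in Pde11a, a cyclic nucleotide phosphodiesterase gene (r = 0.873), then Dyrk2 (0.843), Scyl2 (0.832), Rab3c (0.825) and Caln1 (0.817). Neurod1 was most like Bbs1 (0.75), Spats2l (0.739) and Glp2r (0.738). Sox11 was most like Kctd3 (0.797), Ipmk (0.714) and Kmt5b (0.698), and Sox4 most like Zfp160 (0.668), Slc35b1 (0.667) and Mterf3 (0.663). Calb2 was most like Hpcal1 (0.797), B630019K06Rik (0.779) and Cdhr1 (0.755). No member was among the most similar genes of another member.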

How the data were processed

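RNA of hippocampus (24 libraries) and brainstem (23 libraries) was sequenced. The authors aligned reads with STAR 2.7.9a to the Ensembl mouse genome with the transgene added, and deposited raw gene counts, not normalized. How reads were assigned to genes, and whether by strand, is not given in the sources used here, so reads of overlapping antisense genes cannot be told apart. Symbols and transcript lengths were matched by identifier to GENCODE M21 (GRCm38), which covered 34400 of 35032 identifiers. Groups were taken from the labels, and the transgene's reads are not reported here.

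Genes with at least 50 reads in a region were tested in R 4.3.3 with edgeR 4.0.16 (TMM, quasi-likelihood test, all 4 groups in a model) and 4 surrogate variables from sva 3.50.0, estimated on genes whose mean count reached 50. The region comparison used 1 model of 8 groups without surrogate variables. P-values were adjusted by Benjamini-Hochberg over all tested genes. The 95% intervals were taken from the SE. Mice of a group were treated as replicates, and p-values measure the spread between these samples. All 10 members are named, with, from each gene list, called genes of largest change or else the most abundant, and for each member whose mean count reached 50 the 3 most similar genes (5 for Dcx). Members and lists were chosen with earlier results of these data known. Relations to summed markers used log2(CPM + 0.1) and two-sided permutation tests with 100000 permutations. The fit was tested on simulated data in which 0 surrogate variables were estimated, so its form with 4 was not. Alternatives were DESeq2 1.42.0, RLE scaling, other numbers of surrogate variables, filters and fold limits, a GC offset, a replicate block, only the groups compared, and leaving out each library. Python 3.11.15 drew the figures.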

Additional observations from a re-analysis of the deposited data

Results flagged for a closer look

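In 80 sets of values (10 genes in 8 groups), the gap between the highest or lowest library and its neighbour was compared with the range of the group by Dixon's 95% limit. Chance flags about 1 in 20 groups, and 2 of the 80 were past the limit. Eomes in hippocampus was highest in WT_SD replicate 6, at 0.588 CPM from 9 reads, where the next library had 0.15 CPM. Calb2 in brainstem was lowest in TG_HFD replicate 3, at 93.2 CPM from 1187 reads, where the next had 117 CPM. The cause of either value was not tested.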

How the results depend on the processing

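No member was called in any of the 14 comparisons of groups under any alternative, with DESeq2 or when any 1 library was left out. The lowest adjusted p of a member over all settings was 0.0562, for Dcx in hippocampal TG/WT averaged over diets with 2 surrogate variables. Between regions 7 members were called with every alternative except 8 without a fold limit or without a count filter, 4 when a mean count of 50 was required (5 members tested), and 7 or 8 when 1 library was left out, where the change was Dcx crossing the fold limit. Calb2 in hippocampal TG/WT averaged over diets reversed to −0.0246 with DESeq2 without surrogate variables, −0.0290 with 0, −0.0277 with 1 and −0.0125 with 2 surrogate variables, and −0.0252 with the replicate block without surrogate variables, and the cause was not tested. Counts over all genes depended on the surrogate variables, with 25 genes called for hippocampal TG_HFD/WT_HFD and 698 with 2 of them, and 44 for TG/WT averaged over diets and 334 with 1.

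Same replicate numbers did not meet the bar for pairing, a correlation over 0.1 in every pair. A bar on every pair is strict, and missing it does not show that same-numbered libraries share nothing. The mean correlation was 0.108 over 36 same-numbered hippocampal pairs (15 over 0.1) against −0.0216 over 180 others, and 0.0431 over 26 in brainstem (10 over 0.1) against −0.00521 over 172 others. With the replicate block 0 members were called, and 38 genes in all for hippocampal TG_HFD/WT_HFD. Low counts limit the precision for Eomes, Igfbpl1, Draxin, Top2a and Mki67.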
